A study of Mus musculus with 8 samples.

Results

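The 5 small RNAs mmu-miR-1224, mmu-miR-494, mmu-miR-801, mmu-miR-574-5p and mmu-miR-689 were chosen by their signal in mouse liver, which was higher on the array of a 4-week CCL4 liver than on any of the other 7 arrays. They are 5 of the 567 mouse names on the array and 5 of the 133 names with a detection call on 3 or more of the 8 arrays. Because the 4-week CCL4 array chose them, its height over the other arrays is a description and was not tested. The treatment contrast at 6 and 8 weeks did not enter the choice, and it was tested.

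The mice were C57BL/6J males, adult at 8 weeks of age. They received carbon tetrachloride (CCL4) in olive oil, or olive oil alone, into the peritoneum, 2 times weekly for the first 4 weeks and weekly after that. Livers were taken after 4, 6 or 8 weeks. The study asked how liver miRNAs change while fibrosis develops. CCL4 livers had 1 array after 4 weeks and 2 after each of 6 and 8 weeks, and olive oil livers had 1 array per time. Whether the RNA on an array was from 1 mouse or from several is not given in the sources used here. The n is therefore a number of arrays, and p-values measure only the spread between arrays.

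CCL4 is turned into a reactive radical by hepatocytes around the central vein and kills them, and repeated dosing brings in leukocytes and activates the stellate cells that deposit collagen. A miRNA is a short RNA that pairs through its seed, the bases just after its 5′ end, with messenger RNAs and lowers their output. miR-1224 is a mirtron, a hairpin that comes from a spliced intron without Drosha. miR-494 lies in the imprinted Dlk1-Dio3 miRNA cluster, which is expressed from the maternal chromosome. miR-574 comes from an intron, and its 5p arm is a run of GU repeats. miR-801 and miR-689 are names from early cloning that were later held to be fragments of other RNAs.

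Mature sequences were found in RefSeq (GRCm38.p6) for 3 of the 5 members. They are shown to let the reader see how differently the members are built, with the seed (bases 2 to 8) in capitals.
mmu-miR-1224-5p: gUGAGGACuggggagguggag
mmu-miR-494-3p: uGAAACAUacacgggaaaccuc
mmu-miR-574-5p: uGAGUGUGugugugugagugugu
These 3 seeds differ, and no other mature mouse miRNA in that reference has any of them. Guanine makes up 13 of the 21 bases of miR-1224-5p (61.9%), and only 0.715% of the 1679 mature names in the reference hold as large a share. It makes up 11 of 23 bases in miR-574-5p (47.8%, reached by 8.1% of the mature names). In miR-494-3p it is 4 of 22 bases (18.2%), below the median mature name (26.9%). The 3 sequences thus differ widely in their share of G.

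The array's names carry no arm for miR-1224 and miR-494. For miR-494, the distances from its probes to those of 28 other miRNAs of its chromosome equalled the reference distances to the 3p arm in 26 cases and to the 5p arm in none. For miR-1224, the last 12 bases of the 5p arm hold 9 G or C, and 8 other names with 9 have a shortest probe of 10 to 11 bases. The 3p arm holds 6, and 21 names with 6 have a shortest probe of 12 to 21 bases. The distance check could not place miR-1224, since over 4 names of its chromosome it matched neither arm. The 5p arm is printed for miR-1224 on the probe length alone, and its seed, position and share of G depend on that choice. The array measures miR-1224 with probes that pair with only 9 to 12 bases, and its 9-base probe is the only one of that length on the array.

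The miR-1224-5p sequence lies on chr16:20604452-20604472 (plus strand, GRCm38.p6), within the Vwa5b2 gene. miR-494-3p lies on chr12:109715367-109715388 (plus strand), where the annotation overlaps no other gene. miR-574-5p lies on chr5:64970328-64970350 (plus strand), and its hairpin overlaps Fam114a1 and Tlr6. RefSeq lists mir-801 as a synonym of Rnu11, the U11 small nuclear RNA of the minor spliceosome, on chromosome 4. In the array's own annotation (mm9) the miR-801 probes lie on chr4:131826064-131826078 and the miR-689 probes on chr1:169270598-169270610, both on the minus strand.

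The probes pair with the 3′ end of the mature RNA. The stretch covered by the longest probe is shown in capitals for the same 3 members.
miR-1224 probe end: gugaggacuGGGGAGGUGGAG
miR-494 probe end: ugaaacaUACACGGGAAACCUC
miR-574-5p probe end: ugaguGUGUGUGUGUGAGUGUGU
If miR-1224 is the 5p arm, its probes do not touch the seed, and 9 of the 12 bases they cover are G. The longest probes of miR-494 and miR-574-5p reach into the end of the seed.

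The 8 arrays shared 1 slide and 1 scan. The number of names called detected was 158 on the 4-week CCL4 array and 117 to 145 on the others. The lowest signal called detected was 0.139 on that array and 5.59 to 8.16 on the others. The 75th percentile of the mouse signals, by which the levels were scaled, was 9.50 on that array and 4.71 to 11.01 on the others. Bright control features (geometric mean of 5) read 8288 there and 6185 to 10815 elsewhere, and the median negative control spot read 3.65 there and 2.72 to 4.88 elsewhere. The liver marker miR-122, the dominant hepatocyte miRNA, read 19389 on that array and 18497 to 35101 on the others. A signal is the scanner software's background-subtracted sum over the probes of a name, in arbitrary units, and a scaled level is the signal divided by that percentile. In bulk liver, fewer cells of a type and less RNA per cell cannot be told apart.

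miR-1224 stood highest on the 4-week CCL4 array by the widest margin of the 5. With CCL4 its signal was 1896 (4 weeks), 235 and 334 (6 weeks) and 445 and 385 (8 weeks), and with olive oil it was 226, 205 and 248 in order of time. The 4-week CCL4 signal was 4.26-fold above the next highest array and 8.38-fold above the olive oil array of 4 weeks. Among the other 7 arrays the CCL4 arrays of 8 weeks were the highest by signal. Scaling removed that order. The scaled level was 199.7 on the 4-week CCL4 array and 35.9 to 44.3 on the other 7, a range of 1.23-fold in which CCL4 and olive oil overlapped. In the order of signals within an array, which no division by a percentile alters, miR-1224 was at rank 8 on the 4-week CCL4 array and at ranks 34 to 41 on the others.

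miR-494 followed the same course at a smaller ratio. The CCL4 signals were 323 (4 weeks), 92.6 and 70.0 (6 weeks) and 79.9 and 60.7 (8 weeks), and the olive oil signals by time were 60.0, 75.1 and 59.7. The CCL4 arrays of 6 and 8 weeks and the olive oil arrays overlapped. The 4-week CCL4 array was 3.49-fold above the next highest array by signal and 2.13-fold by scaled level (34.0 against 15.95 on the olive oil array of 6 weeks).

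miR-574-5p was dim. Livers given CCL4 read 43.2 (4 weeks), 11.7 and 12.4 (6 weeks) and 15.6 and 10.3 (8 weeks), and livers given olive oil read 8.76, 9.36 and 11.6 by time. It was not called detected on the second CCL4 array of 8 weeks or with olive oil at 4 and 6 weeks, so those values have no order. All 20 of its spots were well above background on the 4-week CCL4 array, against 0 to 3 of 20 on the others. By signal the next highest array was the first CCL4 array of 8 weeks, which was exceeded 2.77-fold. The other arm of the same hairpin, miR-574-3p, was not detected on any array, with a signal of 1.89 on the 4-week CCL4 array and at most 2.17 elsewhere.

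miR-801 was the dimmest of the set and the least separated. It read 28.6 (4 weeks), 13.5 and 5.26 (6 weeks) and 4.28 and 1.86 (8 weeks) with CCL4, and 2.30, 7.42 and 2.99 by time with olive oil. It was called detected on only 3 arrays: the 4-week CCL4 array, the first CCL4 array of 6 weeks and the olive oil array of 6 weeks. The 4-week CCL4 array was 2.12-fold above the next by signal and 1.45-fold by scaled level (3.01 against 2.07), and it was at least 4.01-fold above the olive oil array of 4 weeks by signal. The bound uses the lowest signal called detected on that olive oil array.

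miR-689 was nearly flat by signal, but not by scaled level, outside the 4-week CCL4 array. The signal with CCL4 was 126 (4 weeks), 28.2 and 29.99 (6 weeks) and 32.5 and 32.2 (8 weeks), and the signal with olive oil was 32.9, 26.3 and 25.5 by time. The other 7 signals spanned 1.29-fold, and the 4-week CCL4 signal lay 3.85-fold above the highest of them. By scaled level the other 7 arrays spanned 2.18-fold, and the ratio to the next array, the olive oil array of 4 weeks, was 2.07 (13.3 against 6.43).

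**Figure D1:**
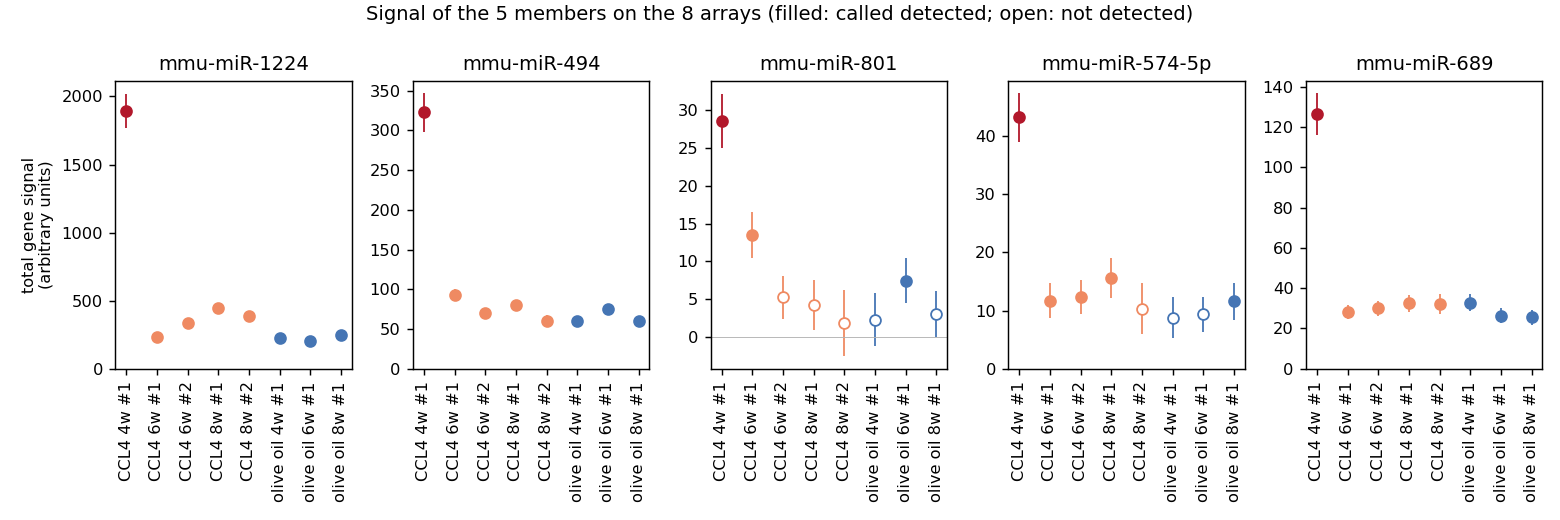
Total gene signal (arbitrary units, linear axis) of the 5 members on the 8 arrays, each panel with an axis of its own. Filled points were called detected and open points were not, and bars are the error the scanner software gives for that signal, not a spread between arrays. Each member is highest on the 4-week CCL4 array (dark red), with miR-1224 at 1896 against at most 445 elsewhere and miR-801 at 28.6 against at most 13.5.

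Every replicate spot of a member was read on each array, and these spots are repeats of 1 RNA on 1 array, not samples. With outlier spots left out, every spot of 11 of the 12 member probes on the 4-week CCL4 array was above every spot of the same probe on the other 7 arrays. The exception was the 14-base probe of miR-801, whose lowest spot there read 2.92 while the highest spot elsewhere read 7.67. The 15-base probe of miR-801 supplied 81.0% of that signal, with spots of at least 28.8 against at most 22.8 elsewhere.

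The 4 probes of miR-1224 gave different ratios. The mean spot signal of its 12-base probe was 3028 on the 4-week CCL4 array and at most 756 on another array, a ratio of 4.01. The ratio was 4.46 for the 11-base probe and 5.44 for the 10-base probe. On the 9-base probe all 5 spots were well above background there, with a mean of 44.9, and at most 1 spot was on any other array. These counts include outlier spots. With outlier spots left out, no spot of that probe exceeded 5.14 on the other arrays. Over the 3 probes that were above background on all arrays, the ratio was larger the shorter the probe. For miR-494, whose probes were measured on every array, the 14-base probe gave 3.09 and the 15-base probe 3.60, so that pair ran the other way. The 13-base probe of miR-689 gave 3.73, and its 12-base probe had at most 1 of 10 spots well above background outside the 4-week CCL4 array. Both probes of miR-574-5p had all 10 spots well above background on that array and at most 2 elsewhere. The 14-base probe of miR-801 had none on any array. No spot of a member was saturated on any array.

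**Figure D2:**
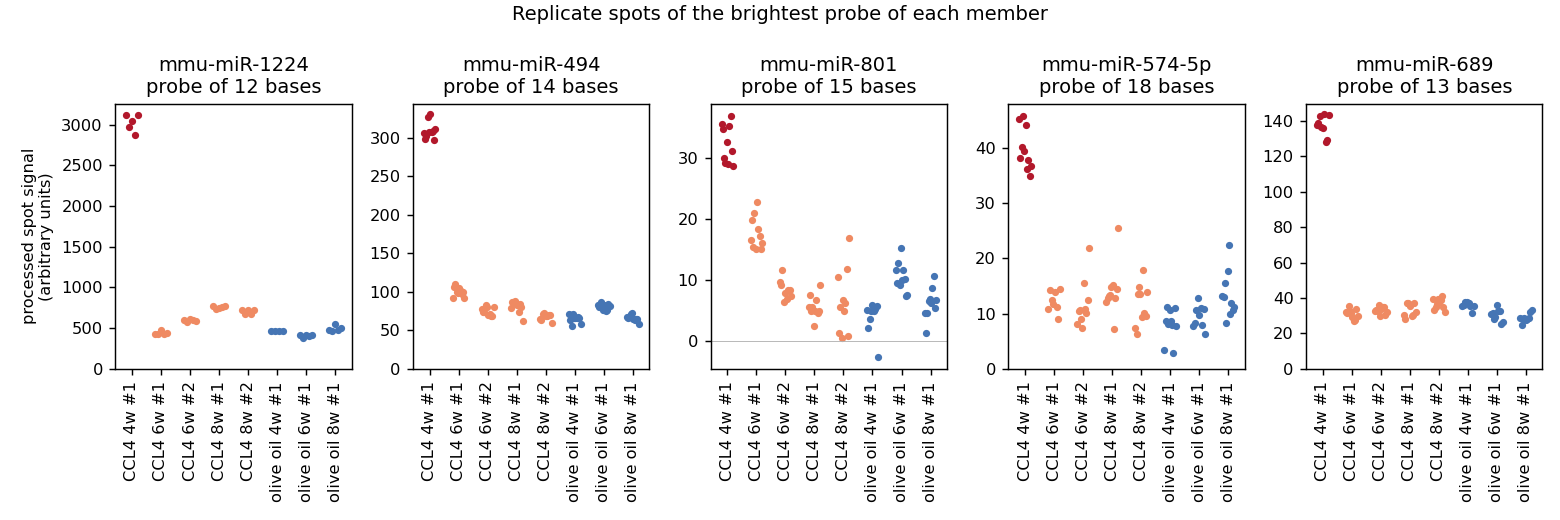
Processed spot signal (arbitrary units) of the brightest probe of each member on the 8 arrays, 1 point per replicate spot with outlier spots left out. The spots of the 4-week CCL4 array (dark red) lie above all spots of the other arrays in each panel, and for the 15-base probe of miR-801 the gap runs from 22.8 to 28.8.

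Being highest on the 4-week CCL4 array was not rare. All 5 members were highest there by signal, as the choice required, and so were 25 of the 133 tested names (18.8%). By scaled level the count was again 25 of 133 (18.8%), the 5 members among them. At least 2-fold above every other array by signal were 6 of 133 (4.51%), the 5 members and miR-223, a miRNA of granulocytes and other myeloid cells. By scaled level they were 5 of 133 (3.76%), miR-223 and all members except miR-801. The choice used this contrast, so nothing is read from the members' share.

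The members took ranks 1 to 4 and 6 of the ratio by signal, with miR-223 at 2.14 in rank 5 just above miR-801. Below them came miR-709 at 1.89, miR-142-3p at 1.52, miR-342-3p at 1.497, miR-18a at 1.45 and miR-27a at 1.34. These were followed by miR-296-5p at 1.23, miR-210 and miR-99b at 1.21 each and miR-143 at 1.19. miR-142-3p and miR-342-3p are abundant in blood-derived cells, and miR-210 is the classical miRNA of hypoxia. At the edge of the rule miR-221 lay just inside with a ratio of 1.00 and miR-340-3p just outside with 0.992.

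**Figure D3:**
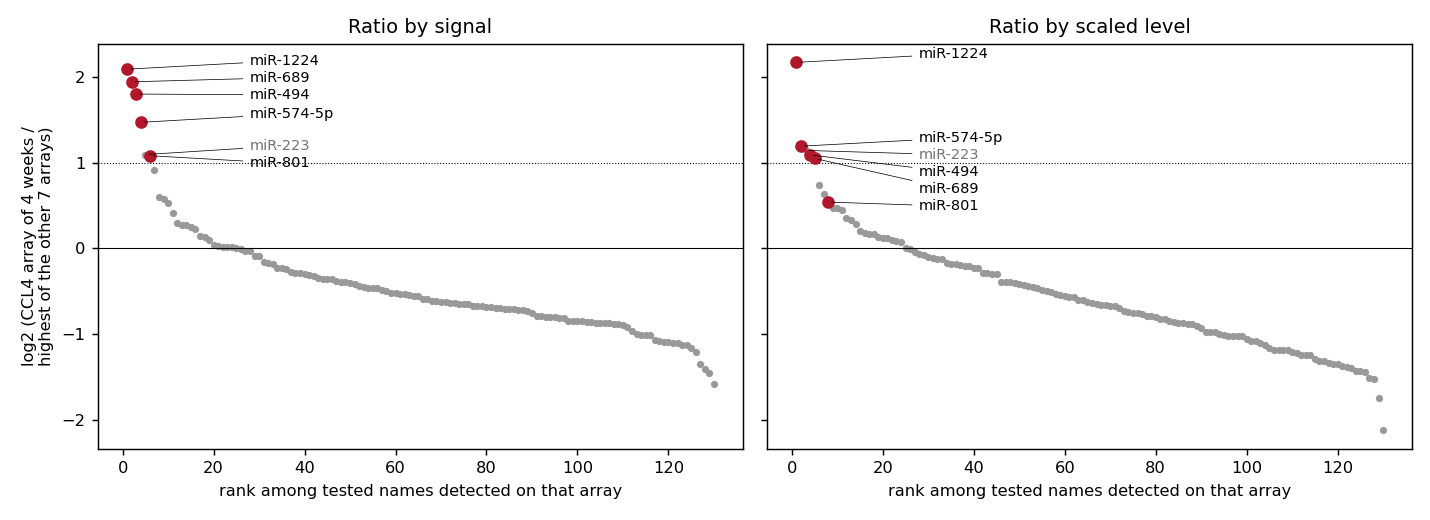
Log2 ratio of the 4-week CCL4 array to the highest of the other 7 arrays for the 130 tested names that were detected on it, ranked, by signal (left) and by scaled level (right). Members are red, the solid line marks equality and the dotted line a 2-fold ratio. By scaled level miR-1224 stands alone near 4.50-fold and miR-801 falls to rank 8.

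Across 8 ways of scaling or summarizing the signals, each member kept its highest level on the 4-week CCL4 array. The ratio to the next array ranged from 3.21 to 6.38 for miR-1224, from 1.77 to 3.49 for miR-494 and from 1.62 to 3.85 for miR-689. It ranged from 1.24 to 2.77 for miR-574-5p and from 1.08 to 2.12 for miR-801. For miR-801 the log2 spread between the paired CCL4 arrays of 6 and 8 weeks (SD 0.894) was larger than its log2 ratio by scaled level (0.54).

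At 6 and 8 weeks, the contrast that had not chosen them, none of the 5 members passed the test of CCL4 against olive oil. This count of 0 is by limma on log2 scaled levels with Benjamini-Hochberg adjustment at 0.05. At an unadjusted p under 0.05 it was 1 of 5, miR-801, which reached the 3 calls needed for testing only with the 4-week CCL4 array. Over all tested names 13 of 133 (9.77%) were higher and 7 of 133 (5.26%) were lower in CCL4. The direction depended on the scaling. Without it 20 of 133 (15.0%) were higher and 0 were lower by limma (also 0 at an unadjusted p under 0.05), and the median log2 difference of all tested names moved from -0.28 to 0.31. With the median as scale the split was 18 higher and 72 lower, and with the control features it was 27 and 2. No member passed without scaling, at an unadjusted p under 0.05 either. The differences of the members are read against that shift.

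miR-1224 had a mean log2 scaled level of 5.36 ± 0.14 (SD, n = 4) in CCL4 and 5.35 ± 0.13 (SD, n = 2) in olive oil at these times. The difference was 0.01 with a standard error of 0.22 (limma adjusted p = 0.989). Its 95% interval ran from -0.42 to 0.44, while the 4-week CCL4 array stood 4.51-fold above its olive oil array by scaled level. Without scaling the difference was 0.59 ± 0.33 (SE), above the shift of 0.31, and all 4 CCL4 arrays exceeded the olive oil array of their week (limma adjusted p = 0.303). Under quantile normalization and under scaling by the control features miR-1224 passed the test as higher in CCL4, with log2 differences of 0.23 and 0.33 (limma adjusted p = 0.0406 and 0.0285).

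On all 4 CCL4 arrays the scaled level of miR-494 was below that of the olive oil array of the week. Its mean log2 scaled level was 3.18 ± 0.47 (SD, n = 4) against 3.60 ± 0.56 (SD, n = 2), a difference of -0.42 ± 0.22 (SE, limma adjusted p = 0.141). Without scaling the sign turned, with 0.16 ± 0.33 (SE) and 3 of 4 CCL4 arrays above. The scaled difference passed when the first CCL4 array of 6 weeks was left out (-0.55, limma adjusted p = 0.0233), and also among names detected on all arrays (limma adjusted p = 0.0343) and with an intensity trend in the variance (limma adjusted p = 0.0462).

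miR-574-5p differed by -0.34 ± 0.22 (SE, limma adjusted p = 0.223) and miR-689 by -0.34 ± 0.22 (SE, limma adjusted p = 0.220) on the scaled log2 scale. By scaled level miR-689 was below the olive oil array of its week on all 4 CCL4 arrays, and by signal it was above on all 4. Undetected values leave no such order for miR-574-5p at 6 weeks. Without scaling they differed by 0.25 and 0.24, close to the shift of all tested names on either scale. miR-574-5p passed without the first CCL4 array of 6 weeks (-0.38, limma adjusted p = 0.0471). At 6 weeks its olive oil array was below detection (signal 9.36) and the CCL4 arrays read 11.7 and 12.4, so no fold is given there.

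miR-801 differed by -0.54 ± 0.22 (SE, limma adjusted p = 0.0753), although its own scaled log2 levels spread by 1.39 (SD, n = 4) within CCL4. limma gave all names the same standard error because it drew their spreads to a common value, which for miR-801 is far below its own. In the exact two-sided permutation test over 15 splits of the 6 arrays its p was 0.667. It passed without the first CCL4 array of 6 weeks (-0.89, limma adjusted p = 0.0468), on which it was detected, and it turned to 0.05 without scaling. At 8 weeks it was not detected on any array, so no fold is read there.

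The smallest exact p that 15 splits allow is 0.0667, and the permutation p of the other members was 1.0 for miR-1224, 0.467 for miR-494, 0.2 for miR-574-5p and 0.333 for miR-689. Without scaling the permutation p was 0.0667 for miR-689 and 0.2 to 0.933 for the others. The CCL4 difference at 8 weeks was set against that at 6 weeks, and it did not pass for any member (limma adjusted p from 0.857 to 0.908). At an unadjusted p under 0.05 that count was also 0. The log2 difference of the effects was 0.27 ± 0.40 (SE) for miR-1224, 0.11 for miR-494, 0.18 for miR-689 and -0.25 for miR-574-5p with the same SE. For miR-801 and in part for miR-574-5p it rests on values below detection.

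**Figure D4:**
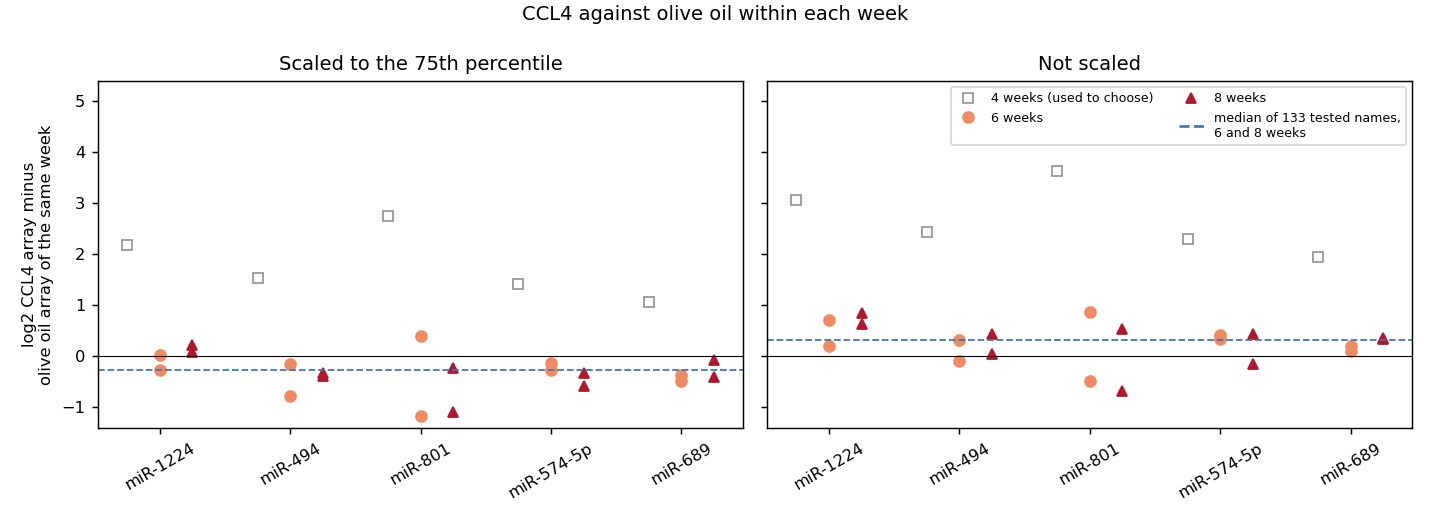
Log2 level of each CCL4 array minus that of the olive oil array from its week for the 5 members, scaled to the 75th percentile (left) and not scaled (right). Circles are 6 weeks and triangles 8 weeks (2 arrays each), open squares are the 4-week array that chose the members, and the dashed line is the median of all 133 tested names (-0.28 scaled, 0.31 not scaled). The points of 6 and 8 weeks scatter around the dashed line for all members but miR-1224, whose points lie mostly above it. The squares lie above the line for every member. Detection is not marked. Points of miR-801 and miR-574-5p that rest on a value below detection, their 4-week squares among them, are not read as folds.

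The order of the members' levels over the arrays was compared as Pearson r of scaled log2 levels over the 8 arrays, which share the 4-week CCL4 array that chose them. The names most like miR-494 were miR-574-5p (r = 0.95), miR-689 (0.93) and miR-801 (0.89). Over the 7 arrays without the 4-week CCL4 array these were 0.86, 0.76 and 0.88. Over the same 7 arrays miR-801 had r = 0.79 with miR-574-5p and 0.38 with miR-689, and miR-574-5p had 0.61 with miR-689. All levels of an array were divided by the same percentile, which ran from 4.71 to 11.01 over these 7 arrays. The signals of miR-494, miR-574-5p and miR-689 spanned only 1.55-, 1.78- and 1.29-fold there. These r values may therefore largely follow the shared division, and r without scaling was not tested. Several levels of miR-801 and miR-574-5p were below detection. Among those 7 arrays miR-494 was highest by scaled level on the olive oil array of 6 weeks, miR-689 on that of 4 weeks and miR-801 on the first CCL4 array of 6 weeks.

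miR-1224 was less like the other members once the 4-week CCL4 array was left out. Over 8 arrays it was most like miR-223 (r = 0.95), miR-27a (0.94) and miR-574-5p (0.89). Without the 4-week CCL4 array its r was -0.28 with miR-574-5p, -0.19 with miR-494, -0.43 with miR-801 and 0.31 with miR-689. With miR-223 it was 0.65 and with miR-27a 0.79. Over those 7 arrays the scaled level of miR-1224 spanned only 1.23-fold, so these r values rest on small differences. For miR-801 the likest names were miR-494 (0.89), miR-574-5p (0.80) and miR-709 (0.70). For miR-574-5p they were miR-494 (0.95), miR-689 (0.91) and miR-1224 (0.89), and for miR-689 they were miR-494 (0.93), miR-574-5p (0.91) and miR-1224 (0.87).

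Most chromosomal neighbours of miR-494 were detected on no array, so no course can be read for them. Of 60 other names of the Dlk1-Dio3 cluster, 7 were detected on any array, none on the 4-week CCL4 array and between 0 and 6 on the others. Over all 567 names, 158 were detected on the 4-week CCL4 array and 117 to 145 on the others. Those 7 were miR-127, miR-136, miR-154, miR-154*, miR-376b, miR-377 and miR-379. Only miR-379 was tested. Its signal was -0.87 on the 4-week CCL4 array, 6.56 and 10.7 after 6 weeks of CCL4, 11.1 and 10.51 after 8 weeks, and at most 0.67 on an olive oil array, and it passed as higher in CCL4 at 6 and 8 weeks. miR-154*, detected on 1 array, read 0.23 on the 4-week CCL4 array and 8.11 to 14.7 on the other CCL4 arrays.

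miR-801 and miR-689 are 2 of 5 names on the array that were listed as fragments of other RNAs. Of these 5, 4 were detected on the 4-week CCL4 array, beside 158 of all 567 names. Of the 3 tested, the 2 members were highest there, as their choice required, and the remaining one was not. miR-720, a tRNA fragment by its later reading, read 8839 on that array and 8076 to 18568 on the others. miR-805 was detected on that array alone, with a signal of 0.139, and miR-685 on none. By limma none of the 3 tested names passed in either direction at 6 and 8 weeks (1 at an unadjusted p under 0.05, miR-801), with a median log2 difference of -0.38 beside -0.28 for all tested names.

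Names numbered near miR-689 come from the same cloning period. Of 41 listed, 39 were on the array and 12 were detected on any array. On the 4-week CCL4 array 10 were detected, against 4 to 6 on each of the others. Over all 567 names, 158 were detected on the 4-week CCL4 array and 117 to 145 on the others. Of the 5 tested in this list, miR-709 and miR-690 were highest on the 4-week CCL4 array, beside 25 of 133 tested names (18.8%). miR-709 read 749 there and 256 to 396 elsewhere, and miR-690 read 57.5 there and 23.3 to 56.6 elsewhere. miR-702, miR-712 and miR-720 were not highest there. Of those detected on 1 array alone, miR-680 read 50.04 on the 4-week CCL4 array and at most 4.19 elsewhere, miR-721 read 31.7 and was below 0 on the other arrays, and miR-705 read 18.6 against at most 7.20. miR-706, miR-714 and miR-715 read 3.59, 4.08 and 6.12 on that array, where miR-715 was not highest, and miR-697 was detected on another array only. By limma none of the 5 passed at 6 and 8 weeks, beside 1 (miR-709) at an unadjusted p under 0.05, with a median log2 difference of -0.38.

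Of the 4 tested leukocyte miRNAs, miR-142-3p and miR-223 were highest on the 4-week CCL4 array, beside 25 of 133 tested names (18.8%). The summed signal of 6 leukocyte miRNAs was 1375 there, 329 to 908 on the other CCL4 arrays and 340 to 596 with olive oil, and by scaled level it was 145 against 50.4 to 107. Of the 6, 5 were detected on that array, beside 158 of all 567 names, and miR-150, the lymphocyte marker, was detected on none. miR-223 read 403 there and 72.9 to 188 elsewhere. miR-142-3p read 827 against 185 to 544, and miR-155 was detected there alone (13.3). miR-142-5p (70.6) and miR-146a (59.0) were not highest there. At 6 and 8 weeks 1 of the 4 tested, miR-146a, was lower in CCL4 by scaled level (log2 difference -0.87, limma adjusted p = 0.00152) but not without scaling. By scaled level 7 of 133 tested names (5.26%) were lower.

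The 5 hepatocyte miRNAs were all detected on all arrays, beside 113 of all 567 names, and none was highest on the 4-week CCL4 array. Their summed signal was 22992 there and 22049 to 42269 elsewhere, and by scaled level it was 2421 there and 3378 to 6076 elsewhere. At 6 and 8 weeks miR-802 passed as higher in CCL4 on both scales and miR-122 as lower by scaled level only. Of the mesenchymal list 5 of 6 were detected on the 4-week CCL4 array, all but miR-145, beside 158 of all 567 names. The summed signal was 469 there, against 200 to 554 on the other CCL4 arrays and 105 to 191 on olive oil. miR-143 was highest there by both scales and miR-214 by scaled level only. At 6 and 8 weeks 3 of the 5 tested passed as higher in CCL4: miR-199b, miR-199b* and miR-214, miRNAs of stellate cells and fibroblasts. Over all tested names 13 of 133 (9.77%) were higher and 7 of 133 (5.26%) lower.

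All 3 erythroid miRNAs were detected on every array, with a summed signal of 4541 on the 4-week CCL4 array and 2503 to 10579 elsewhere, and none was highest there. The same held for both endothelial miRNAs, with 1347 against 888 to 2034. By limma none of these 5 passed at 6 and 8 weeks, beside 0 at an unadjusted p under 0.05. The part that leukocyte content or RNA quality has in the members' values was not tested.

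Probe length differed between the members and most tested names. A shortest probe of at most 14 paired bases was found for 4 of the 5 members, for 15 of the 132 tested names with a probe position (11.4%) and for 193 of 560 of all names (34.5%). The tested names that are not members were also counted by whether the 4-week CCL4 array was their highest. It was for 1 of 3 with a shortest probe of 9 to 12 bases and for 0 of 8 with 13 to 14 bases. The counts were 8 of 32 with 15 to 16, 5 of 39 with 17 to 18 and 6 of 45 with more. The bins of short probes hold few names. Of 25 names with a probe position that were detected on the 4-week CCL4 array alone, 15 (60%) had a shortest probe of at most 14 bases. Those names were found through that array. The part of probe length in the members' values was not tested.

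**Figure D5:**
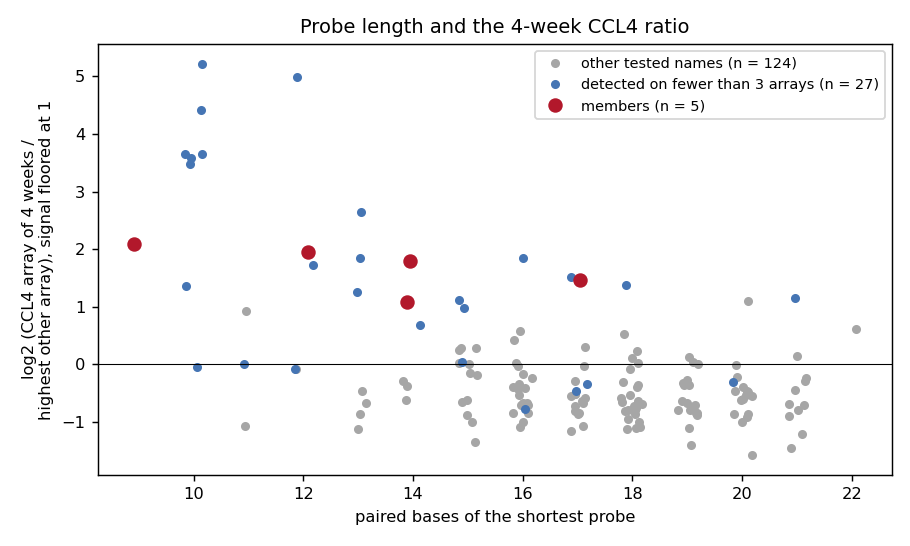
Paired bases of the shortest probe (horizontal axis, points shifted slightly at random) against the log2 ratio of the 4-week CCL4 signal to the highest other array, with signals under 1 set to 1, for names detected on the 4-week CCL4 array with a probe position. Red points are the 5 members, grey the 124 other tested names and blue the 27 names detected on fewer than 3 arrays. Blue points passed detection mainly through the 4-week CCL4 array, so their height follows from how they were found, and the 3 grey points with shortest probes of 11 or 12 bases lie between -1.07 and 0.92.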

How the data were processed

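Liver RNA of 8 mouse samples was measured on single-colour Agilent miRNA arrays. Per the file headers, the authors' deposited intensity values came from Feature Extraction 10.5.1.1, which subtracted background and summed the probes of each name, with nothing done to level the arrays against each other. The processed values that were also deposited are log2 of these signals, with signals under 1 set to 1 (4536 values equal to within 1.107e-06), and were not otherwise used. Each signal was divided by its array's 75th percentile over the 567 mouse names, a floor of 0.01 was then set, and log2 was taken. The study's methods name the same percentile and floor but set the floor before the division, which was run as an alternative. A name was tested when 3 or more of the 8 arrays called it detected (133 names). miR-801 had exactly 3 such calls, 1 of them on the 4-week CCL4 array, so it was tested only through the array that chose it.

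CCL4 was compared with olive oil on the 6 arrays of 6 and 8 weeks in limma 3.58.1 (R 4.3.3) in a model of week and treatment that left 3 residual degrees of freedom. The difference of the effect between 8 and 6 weeks came from all 8 arrays, fitted by group, which left 2. Adjusted p is by Benjamini-Hochberg over all tested names. Outlier spots were left out of spot signals but not of the counts of spots well above background.

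The members and lists were chosen with earlier results of these data known. The names in the text are the members, the detected names of the lists, the 3 names most like each member, and the 10 other tested names with the largest ratio of the 4-week CCL4 array to the next. miR-221, miR-340-3p, miR-685, miR-150, miR-145 and the names detected on the 4-week CCL4 array alone that are in no list were named after their values were seen. The alternatives covered scaling, floor, background correction (normexp, offset 50), detection filter, variance trend, week term, replicate block, each array left out, all 8 arrays in 1 fit, each week alone, each probe alone and an exact permutation test. Scaling by 5 control features and the array's row on the slide as a covariate were added after seeing the data. The number of arrays limits the precision.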

Additional observations from a re-analysis of the deposited data

How the results depend on the processing

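Under each scaling, background correction and spot summary tried, the 5 members kept their highest level on the 4-week CCL4 array. The count of tested names highest there was 25 of 133, and 43 of 133 with scaling by 5 control features. With no filter on detection it was 65 of all 567 names. The CCL4 difference at 6 and 8 weeks turned sign without scaling for miR-494 (0.16), miR-574-5p (0.25), miR-689 (0.24) and miR-801 (0.049). It did so under normexp for miR-494 (0.0087), miR-574-5p (2.6e-04) and miR-689 (0.023), and for miR-801 with the percentile over names detected on all arrays (0.034). For miR-1224 (0.01) it turned at 6 weeks alone (-0.13), with the median as scale (-0.038) and with the slide row as a covariate (-0.038). Only the second CCL4 array of 6 weeks lay on another row than the rest of its week. With the week term, the row covariate thus only removes that array, and leaving it out gave the same -0.038. It is no separate check on slide position. The call appeared for miR-1224 under quantile normalization (0.23) and control features (0.33). It appeared for miR-494 among names detected on all arrays and with an intensity trend (-0.42 both). For miR-801 it appeared in the fit of all 8 arrays (-0.54) and with the floor at the lowest detected signal (-0.46). The causes were not tested.

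With the replicate block, miR-1224 turned to -0.10 and miR-801 to 0.071, the other members kept their sign, and 7 names were higher and 4 lower. The labels do not say that equal numbers pair the CCL4 arrays of 6 and 8 weeks, and the deviations of equal numbers correlated at 0.05 over 133 names with 2 pairs.

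Leaving out 1 array gave -0.13 to 0.14 for miR-1224, -0.55 to -0.28 for miR-494, -0.46 to -0.22 for miR-574-5p, -0.43 to -0.25 for miR-689 and -0.89 to -0.22 for miR-801, where an olive oil array left out leaves the week without a control. The counts ranged from 8 to 20 higher and from 1 to 33 lower, with 20 and 33 once the first CCL4 array of 6 weeks was dropped. The higher count was 8 when the first CCL4 array of 8 weeks or either olive oil array was dropped, and the lower count was then 2, 1 (olive oil, 6 weeks) and 4 (olive oil, 8 weeks). It was 3 when the second CCL4 array of 8 weeks was dropped.

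The counts that follow are out of 133 names, except with no detection filter (567 names) and among names detected on all arrays (113 names). The 13 names higher became 8 with the floor before the division, 3 with no detection filter, 20 without scaling, 2 under normexp and 27 with control features. The 7 lower became 4 with the percentile over names detected on all arrays and with no week term, 35 among names detected on all arrays, 12 in the fit of all 8 arrays and under quantile normalization, 33 with the floor at the lowest detected signal, 2 with the floor before the division, with the mean of processed spots and with control features, 17 with the intensity trend, 72 with the median as scale, 1 with no detection filter, and 0 without scaling and under normexp.

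Signals near background limit miR-801 and miR-574-5p, which were below detection on 5 and 3 of the 8 arrays. The 4-week CCL4 group is 1 array, so its height has no replicate.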

Other observations

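The 4-week CCL4 array held 26 names that were detected on no other array, against 0 to 6 on each of the others. Its detection calls reached lower, with a lowest detected signal of 0.139 against 5.59 to 8.16 on the others. Some of the 26 read below 5.59, such as miR-805 (0.139) and miR-30c-1* (1.16), and some were not highest there. The brightest of the 26 was miR-188-5p, at 136 there and at most 3.64 elsewhere. It was followed by miR-135a* (64.8), miR-680 (50.04), miR-877 (39.5), miR-721 (31.7) and miR-483 (21.2). miR-877 is, like miR-1224, a mirtron. These names were detected on too few arrays to be tested, and no 4-week CCL4 replicate exists to set them against.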
